A study of Homo sapiens with 6 samples.

Results

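SLIT1, SLIT2 and SLIT3 are secreted axon guidance ligands, and ROBO1, ROBO2, ROBO3 and ROBO4 are their transmembrane receptor family. These 7 genes were followed through the H3K4me3 and H3K27me3 maps of D283, an established Group 3 medulloblastoma cell line, among 19974 protein-coding genes on chromosomes 1 to 22 and X. A peak or differential region was assigned to a gene when it overlapped the gene's RefSeq span (GRCh38.p14) extended by 2 kb on both sides, so no measured value entered the assignment. OTX2low denotes D283 tumorspheres after silencing of OTX2, a homeodomain transcription factor of this tumor group, with 30 nM siRNA. OTX2high denotes D283 tumorspheres given a non-silencing scramble siRNA. Both were grown in suspension as spheres on low-attachment plates, in neural precursor medium with FGF and EGF. Each mark was profiled in 1 library per condition, and without replicates the spread between libraries is unknown. All values concern 1 cell line and silencing by siRNA.

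Slit proteins bind the Ig domains of ROBO1 and ROBO2, and in the nervous system this usually repels growth cones and migrating neurons. Commissural axons are kept from recrossing the midline in this way, and migrating neuroblasts are driven away from sources of Slit. ROBO3 is a divergent receptor required for hindbrain commissures, and ROBO4 is mostly known from endothelium. H3K4me3 marks active and poised promoters, and H3K27me3 is deposited by Polycomb repressive complex 2. The 2 marks at 1 promoter are called bivalent when they occur together.

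The genes are long apart from the last receptors. SLIT1 spans 187922 bp at chr10:96998038-97185959, SLIT2 368657 bp at chr4:20251905-20620561 and SLIT3 639400 bp at chr5:168661740-169301139. ROBO1, 1170760 bp at chr3:78597239-79767998, and ROBO2, 1743290 bp at chr3:75906675-77649964, lie on the same chromosome. ROBO3, 16040 bp at chr11:124865432-124881471, and ROBO4, 14175 bp at chr11:124883691-124897865, are neighbours whose extended spans overlap, so a region between them counts for both. Exons and introns were not annotated here, and positions are therefore given from the RefSeq starts.

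The H3K4me3 libraries held 20914582 tags in OTX2low and 33137731 tags in OTX2high after filtering. The H3K27me3 libraries held 33885628 tags in the sample labelled OTX2low and 40271458 in the sample labelled OTX2high. The file headers of these H3K27me3 peak lists name the opposite condition, so the lists are called by their sample label and give no direction between conditions. At OTX2 itself the H3K4me3 region with the most reads had 1768 normalized reads in OTX2low and 3119 in OTX2high in the authors' deposited table. Since siRNA removes transcript and not the gene, this region does not measure the depth of the silencing.

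The start windows below show which annotated starts carried H3K4me3. The start windows used here cover 11 RefSeq starts of the 7 genes, and 8 of them lay inside an H3K4me3 peak in OTX2low, the same number as in OTX2high. The 3 without one were the outer ROBO1 start, the outer of the ROBO2 starts with a window and the ROBO4 start. The ROBO2 span begins further upstream still, at a position with no window here but with a weaker peak in both lists. Among the starts with a window, ROBO1 and ROBO2 each had 1 bare and 1 marked one, and both are printed 5′ to 3′ from 250 bases before the start to 50 bases from the start on (RefSeq, GRCh38.p14), with CpG dinucleotides in capitals. SLIT1, the gene with the largest H3K4me3 difference at a start, follows them.
ROBO2 inner start, chr3:77039849-77040148, plus strand: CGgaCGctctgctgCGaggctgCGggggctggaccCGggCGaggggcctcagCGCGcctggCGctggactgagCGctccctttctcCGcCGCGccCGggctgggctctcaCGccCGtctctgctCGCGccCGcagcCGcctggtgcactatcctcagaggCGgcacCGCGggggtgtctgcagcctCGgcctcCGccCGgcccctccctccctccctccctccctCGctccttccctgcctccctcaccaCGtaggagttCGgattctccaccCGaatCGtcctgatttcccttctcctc
ROBO2 outer start, chr3:76310630-76310929, plus strand: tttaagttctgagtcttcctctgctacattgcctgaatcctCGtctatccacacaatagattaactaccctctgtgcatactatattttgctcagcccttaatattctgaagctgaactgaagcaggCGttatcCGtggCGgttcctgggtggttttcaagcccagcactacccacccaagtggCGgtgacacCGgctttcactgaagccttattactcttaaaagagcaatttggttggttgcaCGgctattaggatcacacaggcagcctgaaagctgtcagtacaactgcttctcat
ROBO1 inner start, chr3:79019410-79019709, minus strand: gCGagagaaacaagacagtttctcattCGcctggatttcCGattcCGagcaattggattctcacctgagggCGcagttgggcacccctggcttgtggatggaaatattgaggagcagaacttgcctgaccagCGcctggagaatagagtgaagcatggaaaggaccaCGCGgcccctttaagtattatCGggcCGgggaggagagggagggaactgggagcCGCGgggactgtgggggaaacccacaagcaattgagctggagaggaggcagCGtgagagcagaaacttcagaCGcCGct
ROBO1 outer start, chr3:79767949-79768248, minus strand: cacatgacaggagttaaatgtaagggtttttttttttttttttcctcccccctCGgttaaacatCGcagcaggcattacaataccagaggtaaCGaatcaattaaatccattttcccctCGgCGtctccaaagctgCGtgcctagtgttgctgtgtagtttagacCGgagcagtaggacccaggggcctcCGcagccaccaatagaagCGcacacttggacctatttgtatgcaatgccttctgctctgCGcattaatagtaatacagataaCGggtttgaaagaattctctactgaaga
SLIT1 start, chr10:97185910-97186209, minus strand: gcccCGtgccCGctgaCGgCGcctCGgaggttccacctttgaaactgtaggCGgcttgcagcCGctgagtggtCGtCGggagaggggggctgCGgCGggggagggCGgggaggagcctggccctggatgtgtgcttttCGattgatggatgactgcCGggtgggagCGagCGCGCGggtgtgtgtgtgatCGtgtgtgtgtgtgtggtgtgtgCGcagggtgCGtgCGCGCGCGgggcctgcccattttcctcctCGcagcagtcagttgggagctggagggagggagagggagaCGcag

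The marked ROBO2 window held 31 CpG dinucleotides and the bare one 7, where the median over 22156 promoter windows of protein-coding genes was 21. The marked ROBO1 window held 15 and the bare one 11, so in ROBO1 the count differed little between the starts. The 3 SLIT windows held 27 (SLIT1), 36 (SLIT2) and 22 (SLIT3), and the bare ROBO4 window held 11. Across these windows the bare starts had the lowest counts.

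A second sequence, that of the first ROBO3 start, is shown because it was the 1 window of the 11 with the homeodomain core bound by OTX and CRX proteins. The motif TAATCC and its reverse complement GGATTA are in capitals, and they overlap here by 2 bases, at positions -127 and -131 relative to the start.
ROBO3 first start, chr11:124865182-124865481, plus strand: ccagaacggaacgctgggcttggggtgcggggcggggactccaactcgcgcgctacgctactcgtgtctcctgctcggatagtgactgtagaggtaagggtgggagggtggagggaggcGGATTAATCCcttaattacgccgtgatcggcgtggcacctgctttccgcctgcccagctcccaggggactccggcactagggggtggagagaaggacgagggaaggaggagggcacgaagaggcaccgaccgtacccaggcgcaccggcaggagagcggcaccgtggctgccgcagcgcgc

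TAATCC on either strand occurred in 5.46% of all 22156 windows, and the overlapping pair of both orientations in 2 windows. The E-box CACGTG occurred in none of the 11 windows and in 8.34% of all windows. The E-box CAGCTG occurred in 1 of the 11, the ROBO3 window that starts at chr11:124875932, and in 18.0% of all windows. These matches describe the reference sequence only.

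H3K4me3 peaks lay at 6 of the 7 genes in OTX2low and at the same 6 in OTX2high, where 73.7% and 75.0% of all protein-coding genes had one. Among genes of at least 100 kb, as all members other than ROBO3 and ROBO4 are, the shares were 90.2% and 92.1%. ROBO4 had no peak of either mark in any list. For the other 6 genes the fold enrichment over local background at a start peak can be read against the median over the RefSeq starts inside a peak in both lists, which was 35.7 in OTX2low and 45.8 in OTX2high. ROBO1, a receptor of commissural and cortical neurons, had the highest, 52.0 in OTX2low and 58.4 in OTX2high. ROBO2, a receptor acting with ROBO1 in many axon tracts, had 37.9 in OTX2low and 43.1 in OTX2high at its inner start. The SLIT1 start peak had 42.9 in OTX2low and 29.2 in OTX2high. SLIT2, a repellent at the midline, had 35.4 in OTX2low and 43.7 in OTX2high, and SLIT3 had 27.1 in OTX2low and 23.8 in OTX2high. ROBO3 had 26.6 in OTX2low and 30.7 in OTX2high at its first start, and 22.1 in OTX2low and 31.6 in OTX2high at its inner start. Only ROBO1 was above the median in both lists, and these values are the authors' own per peak, not scaled between libraries. ROBO2 had a further, weaker peak at the lower end of its RefSeq span, with its summit 132 bp inside the span in OTX2low and 211 bp inside it in OTX2high, and fold enrichments of 7.91 in OTX2low and 10.3 in OTX2high.

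H3K4me3 extended further into SLIT1, SLIT3 and ROBO2 in OTX2low. At SLIT1 the start peak reached 3991 bp downstream of the start in OTX2low and 1284 bp in OTX2high, and was 4280 bp long in OTX2low against 1838 bp in OTX2high. The SLIT3 peak reached 2192 bp downstream in OTX2low and 1382 bp in OTX2high. At ROBO2 the downstream edge stood at 1284 bp in OTX2low and 680 bp in OTX2high. ROBO3 differed little, with downstream reaches of 1370 bp in OTX2low and 1339 bp in OTX2high at its first start and of 1324 bp in OTX2low and 1150 bp in OTX2high at its inner start. That inner ROBO3 peak covered 2 of the listed starts, and distances are from the first of them. The peaks of SLIT2 and ROBO1 were the shorter ones in OTX2low, at 3609 bp in OTX2low against 4003 bp in OTX2high for SLIT2, and 4689 bp in OTX2low against 4970 bp in OTX2high for ROBO1.

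**Figure D1:**
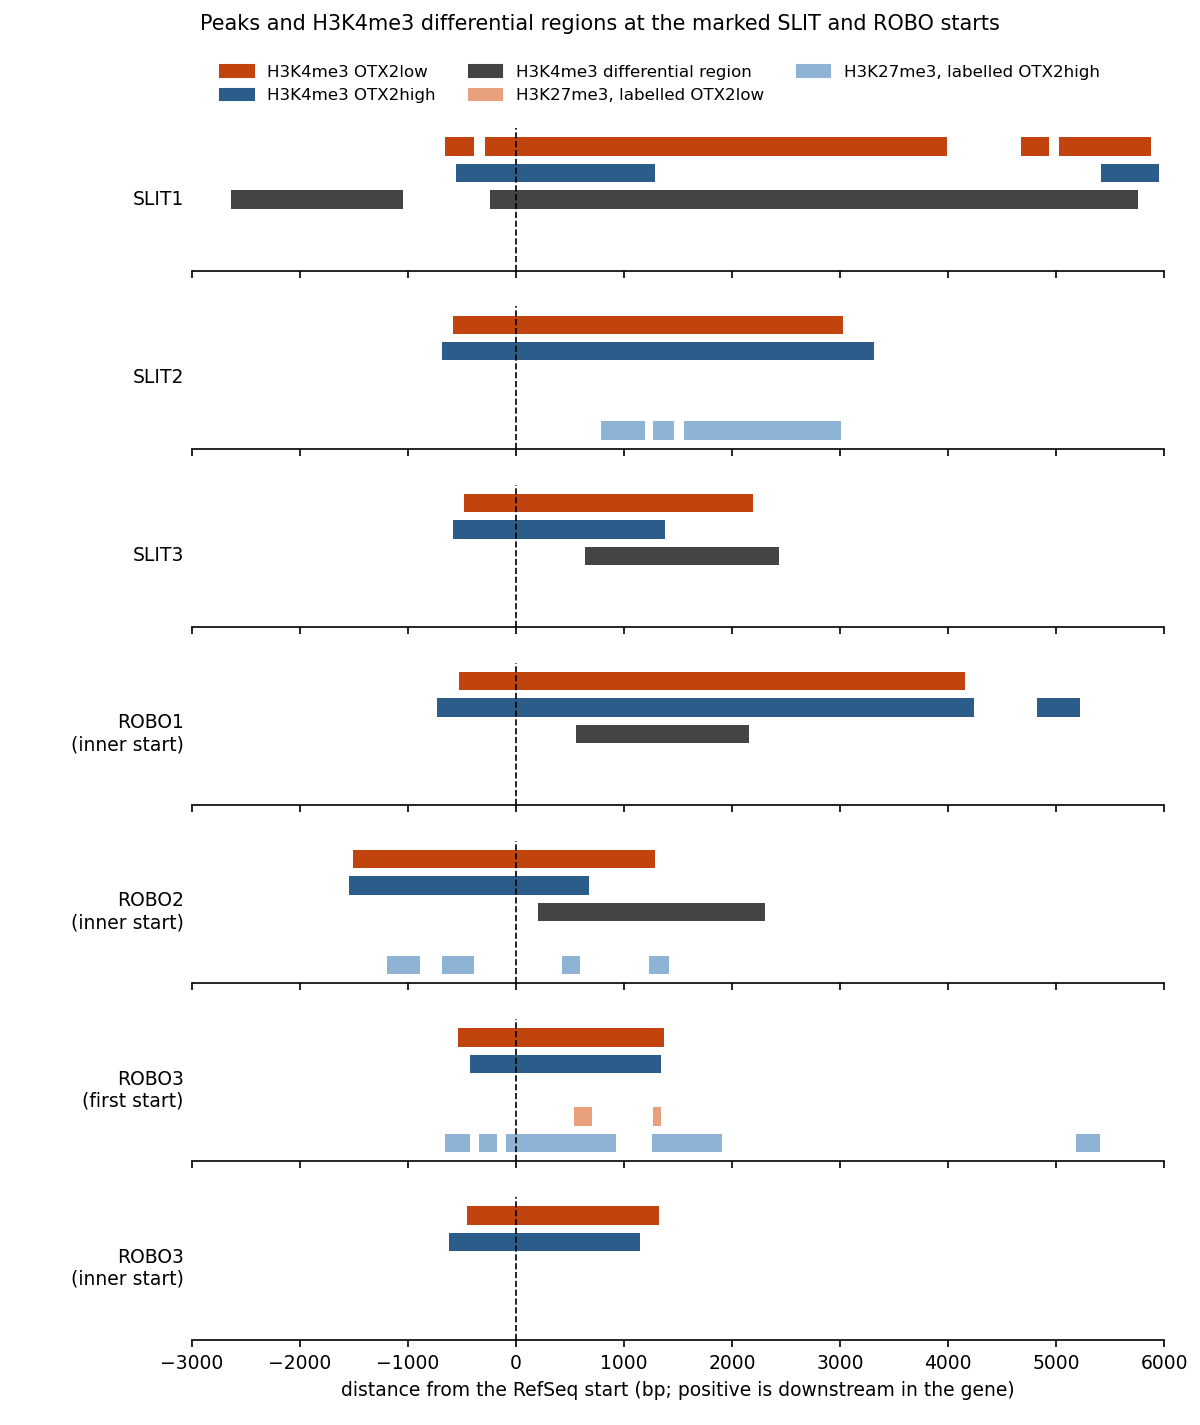
Each row is 1 marked start, and the horizontal axis is the distance from the RefSeq start in bp, positive into the gene. Bars are peaks of the 4 lists and, in dark grey, H3K4me3 differential regions. At SLIT1, SLIT3 and ROBO2 the OTX2low bar runs further to the right than the OTX2high bar and a differential region lies there, while SLIT2 and ROBO3 have no such region.

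Of the 7 distinct start peaks, 5 were longer in OTX2low. Counted by start, 6 of the 8 marked starts had the longer peak in OTX2low. That was so at 15.5% of the 13775 RefSeq starts inside a peak in both lists. The same 5 peaks reached further downstream in OTX2low, and 20.7% of all such starts, again counted by start, had a peak that did. The median difference in length, OTX2low minus OTX2high, was -334 bp over all these starts, and OTX2low was the shallower library. The length difference at SLIT1, 2442 bp, was above that at 99.7% of starts. For SLIT3, at 702 bp, this share was 98.0%, and for ROBO2, at 561 bp, it was 97.4%. The difference of 7 bp at the inner ROBO3 start and of 141 bp at its first start lay within the fragment length of 181 bp estimated in OTX2low and 189 bp in OTX2high.

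**Figure D2:**
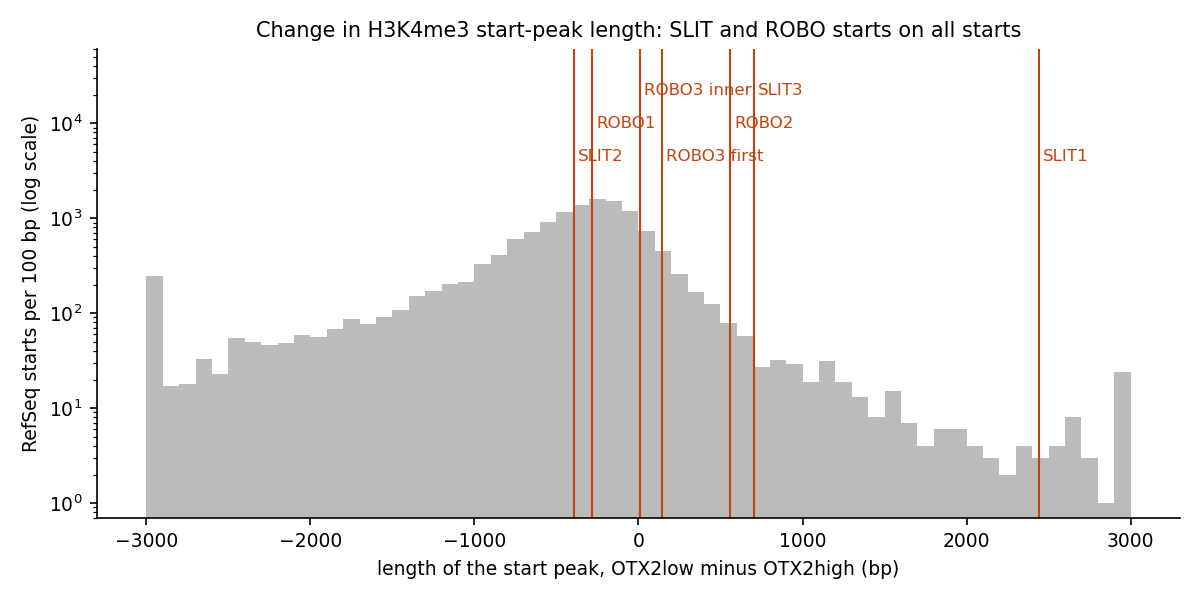
The horizontal axis gives the length of the H3K4me3 start peak in OTX2low minus that in OTX2high in bp, and the grey bars count RefSeq starts per 100 bp on a log axis, with values beyond the ends placed in the end bars. Vertical lines mark the 7 SLIT and ROBO start peaks. SLIT2 and ROBO1 lie in the bulk, and SLIT1, at 2442 bp, lies far to the right.

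The authors' differential regions count reads of the same H3K4me3 libraries, so they are not independent of the peak lengths. The log2 ratio of a region is OTX2high over OTX2low, so that a negative value is higher in OTX2low. Its interval is a 95% counting interval for 1 library against 1. Within 2 kb of a RefSeq start, a count added after seeing the data, 3 of the 7 genes (SLIT1, SLIT3 and ROBO2) had H3K4me3 higher in OTX2low, and 3.61% of all genes with a start in the table did, or 4.68% of those of at least 100 kb. ROBO1 alone was higher in OTX2high there, a direction found for 40.6% of all genes with a start in the table and 45.0% of the long ones. None was mixed, against 1.31% of all such genes and 2.43% of the long ones.

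At the start of SLIT1, a ligand known mostly from the nervous system, the region at chr10:97180201-97186200 had 1113 normalized reads in OTX2low and 351.8 in OTX2high by the authors' deposited table. This is 3.16-fold more in OTX2low, with -1.66 as log2 ratio in the authors' deposited table (interval -1.83 to -1.50). Smaller peaks followed at 4.79 and 5.47 kb downstream of the SLIT1 start in OTX2low, and at 5.56, 6.29 and 7.62 kb in OTX2high. The region ran from 241 bp upstream to 5758 bp downstream of the start, past the end of the OTX2high start peak, and also lies in the annotated readthrough gene ARHGAP19-SLIT1, whose reads cannot be told apart from those of SLIT1.

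SLIT3, a ligand also known from diaphragm, kidney and vascular development, had 211.9 normalized reads in OTX2low and 115.7 in OTX2high in the authors' deposited table over chr5:169298701-169300500, 639 to 2438 bp downstream of its start. This is 1.83-fold more in OTX2low, with -0.87 as log2 ratio in the authors' deposited table (interval -1.20 to -0.54).

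The inner ROBO2 start had 127.9 normalized reads in OTX2low and 47.07 in OTX2high in the authors' deposited table over chr3:77040301-77042400, 202 to 2301 bp downstream of the start. This is 2.72-fold more in OTX2low, with -1.44 as log2 ratio in the authors' deposited table (interval -1.93 to -0.97). In SLIT3 and ROBO2 the differing stretch thus began inside the gene, past the start itself.

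ROBO1 had 643.1 normalized reads in OTX2low and 827.2 in OTX2high in the authors' deposited table over chr3:79017301-79018900, 559 to 2158 bp downstream of its inner start. In the authors' deposited table this is a log2 ratio of 0.36 (interval 0.21 to 0.52), or 1.29-fold more in OTX2high, but it lay below the median of 0.53 over all genes with a region and was -0.17 relative to it. No region was listed at the starts of SLIT2, ROBO3 and ROBO4, and a table of called regions gives no ratio there. Over the 4 genes whose region with the most reads overlapped a peak (SLIT1, SLIT3, ROBO1 and ROBO2), the median log2 ratio was -1.16 in the authors' deposited table, and over 9640 such genes it was 0.53.

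Inside SLIT1 and SLIT3, far from the start, the differential regions that overlapped a peak of either list were higher in OTX2high. Apart from the SLIT1 region at 148 kb, they overlapped a peak in OTX2high alone, the deeper library. Those regions passed the peak filter only through the library where they are higher, so their shared direction is not a result. Weaker regions outside peaks went either way. SLIT1 had an internal peak 148 kb downstream of its start in both lists. The region there, at chr10:97036701-97038500, had 48.89 normalized reads in OTX2low and 100.5 in OTX2high in the authors' deposited table, with a log2 ratio of 1.04 (interval 0.51 to 1.60). A second SLIT1 region, at chr10:97032301-97033600, 153 kb downstream of the start, had 11.28 normalized reads in OTX2low and 39.89 in OTX2high in the authors' deposited table, with a log2 ratio of 1.82 (interval 0.78 to 3.03). Within SLIT1 the start was therefore higher in OTX2low and these 2 internal sites higher in OTX2high. The interval at 148 kb included the median of 0.53 over all genes with a region, and the interval at 153 kb lay above it.

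SLIT3 had 5 internal H3K4me3 peaks in OTX2high, with fold enrichments of 3.31 to 7.29, and in OTX2low its 1 peak was that at the start. The strongest of these internal sites, at chr5:169036301-169037300 and 264 kb downstream of the start, overlapped the annotated antisense gene SLIT3-AS1. It had 15.04 normalized reads in OTX2low and 44.67 in OTX2high in the authors' deposited table, a log2 ratio of 1.57 (interval 0.65 to 2.61). The region at chr5:168942801-168943900, 358 kb downstream, had 5.01 normalized reads in OTX2low and 29.52 in OTX2high in the authors' deposited table, a log2 ratio of 2.56 (interval 1.08 to 4.51). Both were weak beside the start region of the gene. Of the other 3 internal SLIT3 regions, all outside peaks, the one at chr5:169115301-169116300 had 2.51 normalized reads in OTX2low and 19.94 in OTX2high in the authors' deposited table. Another 2 had the direction of the start, with 17.55 normalized reads in OTX2low and 1.60 in OTX2high at chr5:168840901-168841900, and 12.54 in OTX2low and 0 in OTX2high at chr5:169016801-169017900, both by the authors' deposited table. SLIT3 thus had internal regions in both directions, 3 higher in OTX2high and 2 higher in OTX2low. Peak numbers over the span were also higher in OTX2high for SLIT2 (1 in OTX2low, 3 in OTX2high), ROBO1 (2 in OTX2low, 5 in OTX2high) and ROBO2 (2 in OTX2low, 3 in OTX2high). OTX2high was the deeper library, and the part of depth in these numbers was not tested.

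**Figure D3:**
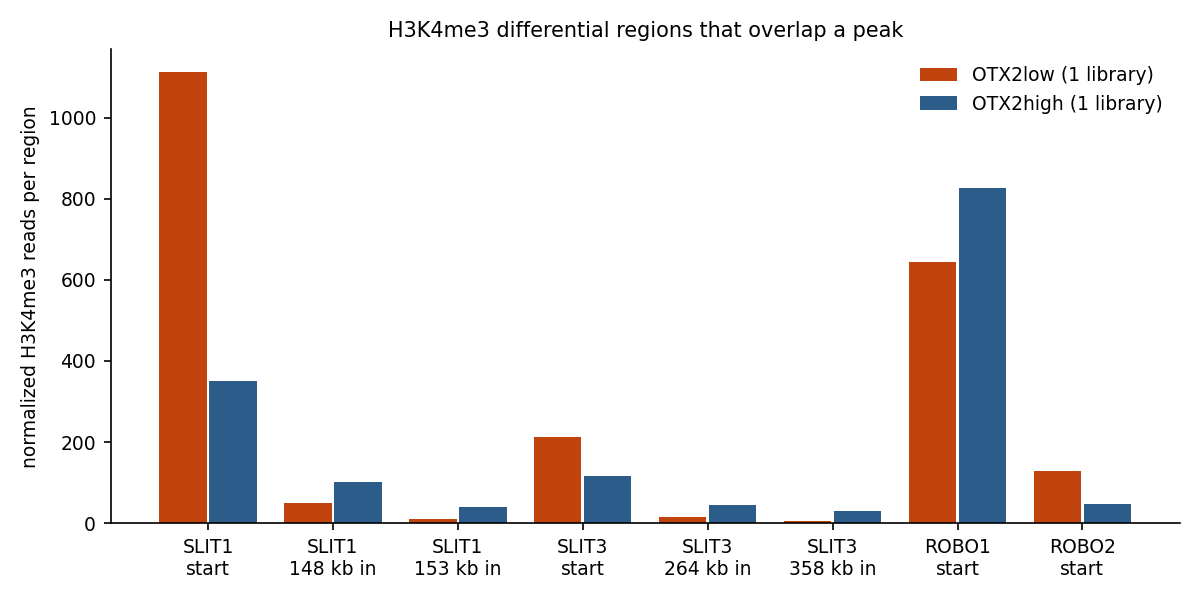
Bars give normalized H3K4me3 reads in the 8 differential regions of SLIT and ROBO genes that overlap a peak, OTX2low on the left and OTX2high on the right of each pair, with 1 library each and so no error bar. The starts of SLIT1, SLIT3 and ROBO2 are higher in OTX2low, and the ROBO1 start and the internal SLIT1 and SLIT3 sites are higher in OTX2high. Apart from the SLIT1 site at 148 kb, these internal sites had a peak in OTX2high alone.

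Counted over the whole extended spans, all 7 genes had at least 1 listed H3K4me3 region, where 53.7% of all genes and 76.6% of genes of at least 100 kb had one. All regions were higher in OTX2low for 2 genes, ROBO3 and ROBO4 (6.0% of all genes, 9.79% of long genes). They were higher in OTX2high for 1 gene, SLIT2 (41.7% of all genes, 47.0% of long genes). SLIT1, SLIT3, ROBO1 and ROBO2, 4 genes, were mixed (5.99% of all genes, 19.8% of long genes). With regions over a peak alone, ROBO2 was higher in OTX2low (3.62% of all genes, 5.07% of long genes) and ROBO1 higher in OTX2high (42.2% of all genes, 52.4% of long genes). SLIT1 and SLIT3 stayed mixed in that count (2.55% of all genes, 5.67% of long genes). For SLIT3 this rests on internal regions with a peak in OTX2high alone. Of the 19 distinct regions, 11 overlapped no peak and had at most 32.59 normalized reads in either library. OTX2low was the higher one in 6 of these and OTX2high in 5. The directions given for ROBO3, ROBO4 and SLIT2 rest on such regions alone. SLIT2 had 1.25 normalized reads in OTX2low and 19.15 in OTX2high at chr4:20316301-20317300, and 6.27 in OTX2low and 30.31 in OTX2high at chr4:20384701-20386000, both by the authors' deposited table. Their log2 ratios in the authors' deposited table were 3.93 (interval 1.32 to 9.29) and 2.27 (interval 0.93 to 3.98), so the intervals lay above the median but were wide. ROBO3 and ROBO4 share theirs, at chr11:124883001-124884100, which overlaps the end of ROBO4 far from its start. It counts for ROBO3 only through the 2 kb extension. It had 17.55 normalized reads in OTX2low and 0.80 in OTX2high in the authors' deposited table, 14 reads against 1. By the authors' deposited table the log2 ratio was -4.46, with a counting interval from -9.86 to -1.74.

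**Figure D4:**
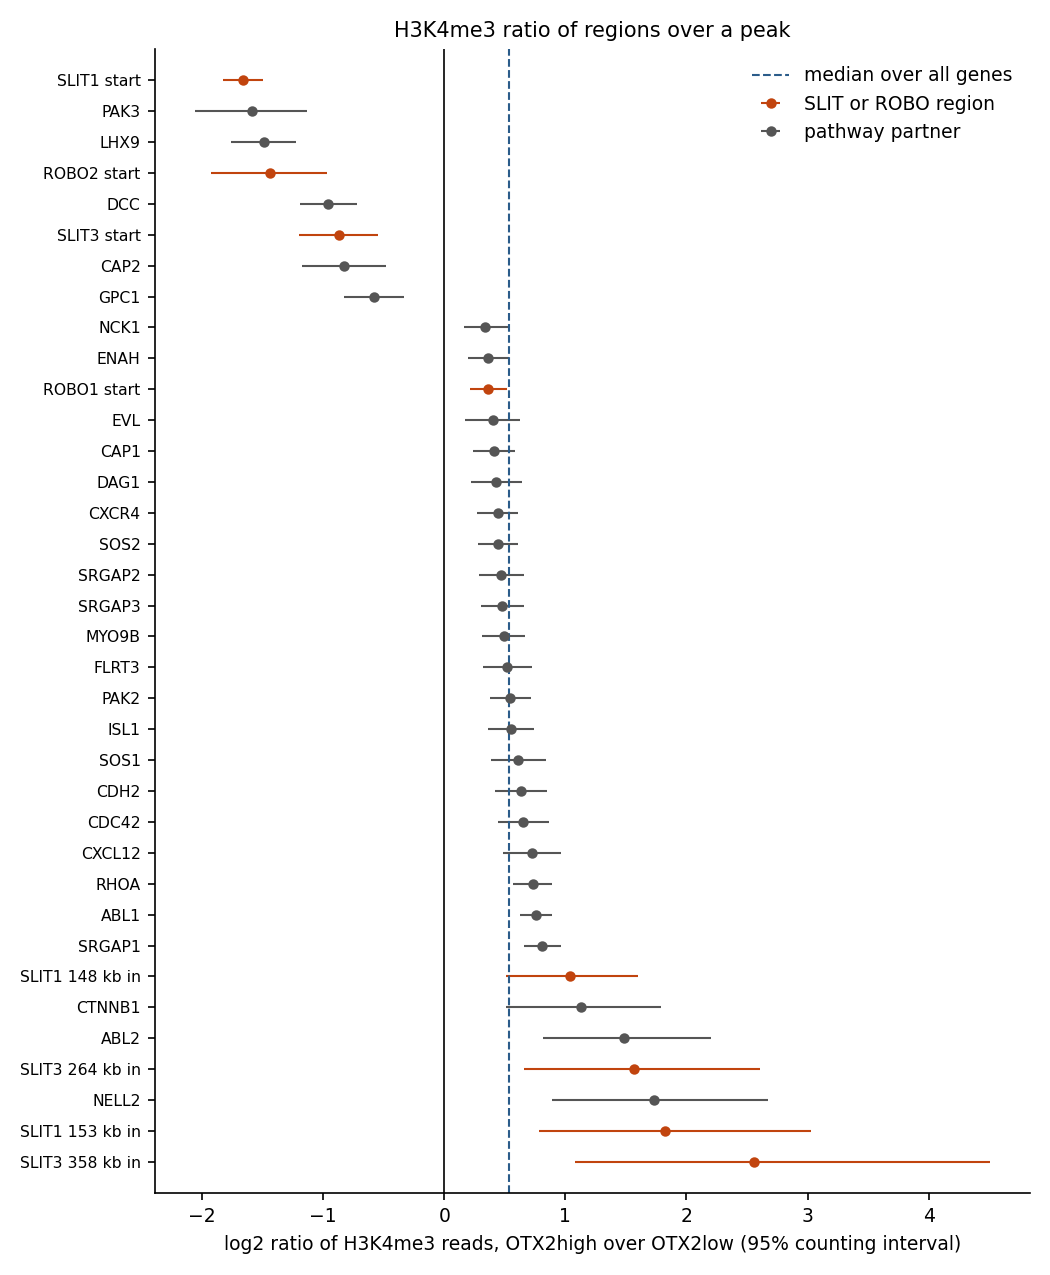
Points give the log2 ratio of H3K4me3 reads, OTX2high over OTX2low, with 95% counting intervals, for the SLIT and ROBO regions over a peak and for each pathway partner whose region with the most reads overlaps a peak. The dashed line is the median over all genes, 0.53. The starts of SLIT1, ROBO2 and SLIT3 lie left of 0 with PAK3, LHX9, DCC, CAP2 and GPC1.

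H3K27me3 was found at the starts of SLIT2, ROBO2 and ROBO3, and mostly in 1 of the lists. H3K27me3 peaks lay at 3 of the 7 genes in the list labelled OTX2low (SLIT3, ROBO2 and ROBO3) and at 3 in the list labelled OTX2high (SLIT2, ROBO2 and ROBO3), where 17.7% and 25.8% of all genes had one, and 21.1% and 30.9% of long genes. Starts with an H3K4me3 peak in both lists and an H3K27me3 peak within 2 kb, a bivalent arrangement, belonged to ROBO3 in the list labelled OTX2low and to SLIT2, ROBO2 and ROBO3 in the list labelled OTX2high. The shares over all genes with a start in the table were 4.57% and 7.91%. Bivalence is defined here by overlapping peak lists of a cell population, and both marks on 1 allele were not measured.

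The first ROBO3 start was the clearest case. In the list labelled OTX2low it had peaks of 167 and 78 bp, with fold enrichments of 5.05 and 4.12. In the list labelled OTX2high it had 4 peaks within 2 kb, the strongest 1022 bp long over the start itself, with a fold enrichment of 7.10. The inner ROBO3 start had no H3K27me3 peak within 2 kb in either list, so the gene carried both marks at 1 start and H3K4me3 alone at the other. SLIT2 had no H3K27me3 peak in the list labelled OTX2low and 3 in the list labelled OTX2high, all inside its H3K4me3 peak and with fold enrichments of 3.31 to 5.61. ROBO2 had 4 peaks within 2 kb of its inner start in the list labelled OTX2high, with fold enrichments of 2.80 to 3.91, and none there in the list labelled OTX2low. A further group of 6 weak ROBO2 peaks lay 251 to 290 kb downstream of that start in the list labelled OTX2high, and the 1 ROBO2 peak of the list labelled OTX2low lay among them, at 289 kb. The 1 SLIT3 peak, in the list labelled OTX2low, was 78 bp long and lay 376 kb downstream of the start, with a fold enrichment of 4.55. SLIT1, ROBO1 and ROBO4 had no H3K27me3 peak in either list. The fragment length was estimated at 78 bp for the list labelled OTX2low and at 169 bp for the list labelled OTX2high, and the lengths of peaks depend on it.

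SLIT2 was the 1 member with a differential H3K27me3 region (1 of 7, where 10.7% of all genes and 18.0% of long genes had one). Its regions were all higher in OTX2low by the names in the table's header, as were those of 7.1% of all genes and 8.12% of long genes, while 3.35% of all genes and 8.56% of long genes had theirs higher in OTX2high. The region at chr4:20245001-20264000, over the start, had 323.6 normalized reads in OTX2low and 201.2 in OTX2high by the authors' deposited table, 1.61-fold more in OTX2low. In the authors' deposited table its log2 ratio, -0.69 (interval -0.95 to -0.42), compares with a median of -0.33 over all genes with a region. A second region at chr4:20267001-20277000, inside the gene, had 170.6 normalized reads in OTX2low and 101.8 in OTX2high in the authors' deposited table, a log2 ratio of -0.75 (interval -1.12 to -0.38). Both were weak, since the first had a ratio of ChIP over IgG reads of 1.47 in OTX2low and 0.83 in OTX2high in the authors' deposited table, and the second 1.29 in OTX2low and 0.73 in OTX2high. The list labelled OTX2high, which held the SLIT2 peaks of this mark, is named OTX2low in its own header. If the sample labels of the H3K27me3 libraries hold and not the header names, both directions turn round.

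SLIT2 and SLIT3 also host the genes of miR-218, a microRNA reported to target ROBO1 and ROBO2 transcripts. The mature sequences (RefSeq, GRCh38.p14) are printed with the seed, bases 2 to 8, in capitals, to show what the hosts share.
miR-218-5p, from MIR218-1 in SLIT2 and from MIR218-2 in SLIT3: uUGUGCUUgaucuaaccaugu
miR-218-1-3p, from SLIT2: aUGGUUCCgucaagcaccaugg
miR-218-2-3p, from SLIT3: cAUGGUUCugucaagcaccgcg

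Both loci give the same 5p arm with 1 seed, while the 3p arms have different seeds. The 5p arm lies 276 kb from the start of SLIT2 and 533 kb from that of SLIT3. No peak of any of the 4 lists and no differential region lay within 2 kb of either microRNA gene.

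Genes acting with Slit and Robo mostly followed the general direction. They comprise surface proteins, cytoplasmic effectors and transcriptional regulators, listed from general knowledge of the pathway. Of 38 protein-coding partners, all had an H3K4me3 peak in both lists. H3K4me3 was higher in OTX2low at 5 of them (13.2%, against 6.0% of all genes) and higher in OTX2high at 23 (60.5%, against 41.7%). Another 3 were mixed and 7 had no region. Of all genes, 73.7% had a peak in OTX2low, 75.0% had one in OTX2high, and 53.7% had a region. The shares by direction thus have unlike bases, and their differences are not read as a result about the partners. Over the 28 partners whose region with the most reads overlapped a peak, the median of the log2 ratios in the authors' deposited table was 0.48, against 0.53 over all genes with such a region.

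Among the 28 partners whose region with the most reads overlapped a peak, those furthest toward OTX2low were a kinase, a homeodomain factor and a receptor. PAK3, a neuronal kinase activated by RAC1 and CDC42, had 149.2 normalized reads in OTX2low and 49.46 in OTX2high by the authors' deposited table, a ratio on the log2 scale of -1.59 with an interval of -2.06 to -1.14. LHX9, a factor that controls Robo3 in commissural neurons of the mouse, had 401.1 normalized reads in OTX2low and 142.8 in OTX2high, a log2 value in the authors' deposited table of -1.49 with an interval of -1.76 to -1.22. DCC, the netrin receptor that Robo can silence, had 416.2 normalized reads in OTX2low and 214.6 in OTX2high, a log2 value in the authors' deposited table of -0.96 with an interval of -1.19 to -0.72, and it is mixed over its span. These 3 were picked as the lowest ratios among regions already called different, so counting intervals below 0 follow from that choice.

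Furthest toward OTX2high among the same 28 partners were NELL2, ABL2 and CTNNB1. NELL2, a secreted ligand of ROBO3, had 17.55 normalized reads in OTX2low and 58.23 in OTX2high by the authors' deposited table, a ratio on the log2 scale of 1.73 with an interval of 0.89 to 2.67. ABL2, a kinase acting downstream of Robo, had 28.83 in OTX2low and 80.57 in OTX2high, a log2 value in the authors' deposited table of 1.48 with an interval of 0.82 to 2.20. CTNNB1, the cadherin partner beta-catenin, had 35.1 in OTX2low and 76.58 in OTX2high, a log2 value in the authors' deposited table of 1.13 with an interval of 0.51 to 1.79. All 3 regions had under 100 normalized reads in either library, so they are weaker than those of the other group.

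For H3K27me3, 3 partners had a differential region over a peak, 2 higher in OTX2low and 1 higher in OTX2high, where 7.23% and 0.926% of all genes had such regions. In the authors' deposited table, going by its header, GPC1, a heparan sulfate proteoglycan that binds Slit, had 1138 normalized reads in OTX2low and 883.8 in OTX2high, a log2 ratio of -0.36 (interval -0.49 to -0.24). NTN1, the netrin ligand of DCC, had 537.0 in OTX2low and 392.2 in OTX2high in the authors' deposited table (-0.45, -0.65 to -0.26). DCC had 133.8 in OTX2low and 217.2 in OTX2high in the authors' deposited table (0.70, 0.38 to 1.02), in a region with a ChIP over IgG ratio of 0.76 in OTX2low and 1.16 in OTX2high. GPC1 and NTN1 lay near the median of -0.33 over all genes, and the DCC region had about as many reads as IgG.

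Over whole spans, 2 of the 38 partners had H3K27me3 regions higher in OTX2low and 3 higher in OTX2high, against 7.1% and 3.35% of all genes. Apart from DCC, the partners higher in OTX2high had all their regions outside peaks. Their ChIP over IgG ratios were 0.71 to 1.38 across both libraries, so they too were near the IgG level. H3K27me3 peaks lay at 5 of the 38 in the list labelled OTX2low and at 8 in the list labelled OTX2high, against 17.7% and 25.8% of all genes.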

How the data were processed

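H3K4me3 and H3K27me3 ChIP-seq was deposited for D283 tumorspheres, 1 library per mark and condition. The submitters' processing notes name GRCh38 as the build, Bowtie2 2.3.3.1 as the aligner and MACS2 2.1.1.20160309 as the peak caller. Per the file headers, each list came from 1 ChIP and 1 IgG library, unpooled, with 0.05 as the q-value limit. The authors' deposited peak lists give a pileup signal, -log10 p and q-values and a fold enrichment (ratio) per peak. These describe a peak and are not scaled between libraries. Per the file headers, the differential tables come from diffReps 1.55.6, a G-test of 1 library against 1 over windows of 1000 bp (H3K4me3) or 10000 bp (H3K27me3). The authors' deposited columns hold a read signal scaled per library (normalized reads), a ratio of ChIP over IgG, the log2 ratio and p-values. Those p-values compare a pair of libraries and are not printed.

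In the H3K4me3 columns the value of 1 read was 1.25 (OTX2low) and 0.798 (OTX2high). Division gave whole reads within 0.05 for 100.0% of values in each column, and a G-test on them called 21714 of the 21714 listed regions, which were the authors' own calls. H3K27me3 values were also whole multiples of 1 step (100.0%). The counting intervals are Clopper-Pearson intervals of 95%, conditional on the reads of a region, and cover counting error only, with PCR copies not told apart from molecules.

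Starts and sequences come from RefSeq (GRCh38.p14, start windows for some genes only), and shares of genes near a start use genes with a start. No exon annotation was used. A gene was higher in a condition when all its regions had that direction, and mixed otherwise. Partners named are the 3 lowest and 3 highest log2 ratios over a peak and those with an H3K27me3 region over a peak. Members, lists and alternatives were chosen with earlier results of these data known. The lengths of start peaks, the pairing of both marks at a start, the overlapping motif pair and the count within 2 kb of a start were added after seeing the data. The overlap and interval code was tested on simulated data. The IgG libraries carry conflicting labels and were assigned to no group. Computation used Python 3.11.15, numpy 2.4.6, scipy 1.17.1 and pandas 2.3.3.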

Additional observations from a re-analysis of the deposited data

How the results depend on the processing

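The number of genes with a peak, 6 for H3K4me3 in each condition and 3 for H3K27me3 in each list, moved by no more than 1.5 times with no extension, a 10 kb extension, a q-value of 0.001 or at least 50% of the peak inside the span. The counts of genes by direction over whole spans moved more. Genes with H3K4me3 higher in OTX2low, 2 in the report, were ROBO3 and ROBO4. Such genes numbered 1 with no extension or with at least 50% of the region inside. The region that ROBO3 and ROBO4 share then no longer counted for ROBO3, whose span ends before it. With at least 20 normalized reads or with regions over a peak they also numbered 1, but this gene was ROBO2. The shared region of ROBO3 and ROBO4, with 17.55 normalized reads in OTX2low and 0.80 in OTX2high, passed neither filter. Recentring on the median over genes gave 3 such genes. Genes higher in OTX2high, 1 in the report, numbered 2 with at least 20 normalized reads. Mixed genes, 4 in the report, numbered 2 with at least 20 normalized reads and 2 with regions over a peak, and 0 within 2 kb of a RefSeq start, an alternative chosen after seeing the data. The single gene with H3K27me3 higher in OTX2low, SLIT2, became 0 when regions had to be enriched at least 2-fold over IgG. Recentring on the median over genes turned the ROBO1 log2 ratio to -0.17. Recentred values of SLIT1, SLIT3 and ROBO2 were -2.19, -1.40 and -1.97. Summing all regions of a gene gave -1.25 for SLIT1 and -0.32 for SLIT3 (-1.66 and -0.87 in the report). No paired analysis was possible because each condition has 1 library, so leaving out a replicate could not be tried either. At 20914582 and 33137731 tags, regions of a few reads have intervals several log2 units wide.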

Other observations

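SLIT1 also had a weak region upstream. At chr10:97187001-97188600, outside any peak, the authors' deposited table had 32.59 normalized reads in OTX2low and 2.39 in OTX2high, a log2 ratio of -3.77 (95% counting interval -6.14 to -2.06), from 26 reads against 3. The start region reached 241 bp upstream, so a difference further upstream of SLIT1 rests on this weak region alone. The start peak itself reached less far upstream in OTX2low, 288 bp against 553 bp in OTX2high. A separate small peak with its summit at -536 bp was listed in OTX2low.

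Single weak regions inside the long genes went either way. In 2 of them the OTX2high library had no read. These were at chr5:169016801-169017900 in SLIT3 and chr3:76439601-76440600 in ROBO2, each with 10 reads in OTX2low, and the 95% counting interval of the log2 ratio lay below -1.82. In another 2 the OTX2low library had no read. At chr10:97041801-97042900 in SLIT1 there were 14 reads in OTX2high, with the interval above 1.08, and at chr3:76746501-76747600 in ROBO2 there were 17, with the interval above 1.39.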
